A study of Mus musculus with 6 samples.

Results

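Peptides from proteins made inside a cell reach its surface on MHC class I molecules, and 10 genes of this pathway were followed here in splenic B cells from mice with and without a B cell deletion of *Hif1a*, the oxygen-sensitive subunit of the HIF-1 transcription factor. The 10 genes were the heavy chains *H2-K1*, *H2-D1*, *H2-Q7* and *H2-T23*, the light chain *B2m*, the peptide transporter genes *Tap1* and *Tap2*, the loading factor *Tapbp*, the trimming peptidase *Erap1* and the transactivator *Nlrc5*. They were a named list, found by matching the Ensembl gene identifiers of the expression table to GENCODE vM21 symbols. All 10 were among the 46983 genes listed, and all 10 were among the 13312 genes that were tested because their mean level over the libraries was at least 0.5 FPKM (fragments per kilobase of gene length, scaled to the library's reads).

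The series held 6 bulk RNA-seq libraries, 3 labelled WT and 3 labelled KO, from mouse splenic B cells kept for 3 days in medium that induces switching to IgA. Both groups received LPS at 5 μg/ml together with BAFF, IL-5 and TGF-β, each at 10 ng/ml. Per the study's methods, the KO cells came from mice with a floxed *Hif1a* gene and the Mb1-cre driver, which is active in the B lineage from its early stages, and the cultures were started from sorted follicular B cells. The WT controls were littermates that either carried the driver with 1 floxed allele or had both floxed alleles without the driver, and which of these stands behind each WT library, the age of the mice and whether the replicates came from separate animals were not given in the sources used here. The p-values below therefore measure the spread between these libraries, which may be technical.

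A class I molecule is a heavy chain paired with β2-microglobulin and a short peptide. Peptides cut by the proteasome are pumped into the endoplasmic reticulum by the TAP transporter, a dimer of TAP1 and TAP2, are trimmed by ERAP1, and are fitted into the groove with the help of tapasin, the product of *Tapbp*. Nucleated cells carry class I constitutively, interferons raise it, and NLRC5 is the coactivator that drives its genes, as CIITA does for class II.

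For *Hif1a* itself, the gene-level FPKM in order of replicate number, the order used for all values below, was 36.5, 49.8 and 45.8 for WT against 46.5, 45.6 and 52.8 for KO, so the targeted gene was not lower in the libraries labelled KO (log2 difference KO minus WT 0.14, 95% interval -0.15 to 0.43, limma adjusted p = 0.701). A gene-level value also counts the exons that a floxed allele leaves in place, and the deleted exons are not given in the sources used here, so this value does not check the labels. "KO" and "WT" below are the labels of the libraries. B cell genes were high in all 6 libraries, with *Cd79a*, a chain of the B cell receptor, between 498 and 1203 FPKM. Several libraries stood apart from the rest. WT replicate 1 was the only one with more than a trace of neutrophil transcripts (summed markers 32.9 FPKM, at most 0.521 elsewhere). WT replicates 2 and 3 held summed levels of 13 macrophage markers of 190 and 127 FPKM, against 68.3 to 80.1 in the other 4 libraries, and *Lyz2*, a lysozyme of myeloid cells, stood out among these markers with 58.3 and 26.2 FPKM in these libraries against 0.5996 to 6.18. KO replicate 2 was the only library with the Y-linked gene *Ddx3y* (43.3 FPKM, at most 0.0095 elsewhere) and the only one nearly without *Xist* (0.014 FPKM, at least 167 elsewhere), a pair of genes looked up after the values were seen.

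The start regions of 5 members are printed first, because they hold letters recognised by factors of the interferon and NF-κB pathways, whose genes are described further on. The sequences are the 180 bases before the start site that RefSeq annotates on GRCm38.p6, read 5′ to 3′ on the strand of the gene. Capitals mark the letters of the motifs searched, on either strand.
H2-K1 (chr17:34000348-34000527, minus strand): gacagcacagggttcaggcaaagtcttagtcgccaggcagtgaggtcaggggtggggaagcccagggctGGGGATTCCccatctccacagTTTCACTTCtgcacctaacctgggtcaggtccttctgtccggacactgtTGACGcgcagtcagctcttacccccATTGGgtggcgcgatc
H2-D1 (chr17:35262914-35263093, plus strand): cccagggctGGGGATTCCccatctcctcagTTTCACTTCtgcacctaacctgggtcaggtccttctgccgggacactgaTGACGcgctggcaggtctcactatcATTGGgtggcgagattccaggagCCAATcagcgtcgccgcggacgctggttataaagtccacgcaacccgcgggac
H2-Q7 (chr17:35438975-35439154, plus strand): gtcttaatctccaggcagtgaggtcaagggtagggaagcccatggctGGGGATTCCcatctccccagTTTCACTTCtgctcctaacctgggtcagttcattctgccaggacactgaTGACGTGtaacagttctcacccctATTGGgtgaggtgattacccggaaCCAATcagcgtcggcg
H2-T23 (chr17:36032702-36032881, minus strand): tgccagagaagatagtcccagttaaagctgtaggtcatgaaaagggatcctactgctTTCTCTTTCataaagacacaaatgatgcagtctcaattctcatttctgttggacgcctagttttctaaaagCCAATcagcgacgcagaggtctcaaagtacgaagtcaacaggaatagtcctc
B2m (chr2:122147507-122147686, plus strand): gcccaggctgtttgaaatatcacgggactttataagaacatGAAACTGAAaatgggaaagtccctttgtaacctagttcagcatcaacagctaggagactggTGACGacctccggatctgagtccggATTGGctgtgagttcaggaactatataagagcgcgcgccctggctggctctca

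A search of the 250 bases before the start covered 8 members, since *Nlrc5* and *Tap2* had no entry in the promoter table, and 27025 promoters in all. The NF-κB letters GGGGATTCC stood in 3 of the 8, *H2-K1*, *H2-D1* and *H2-Q7*, and in 0.218% of all promoters. Only this exact string was searched, and other forms of an NF-κB site were not. Its absence from the other members, *B2m* among them, therefore does not show that they lack such a site. The 3 printed windows also share much of the sequence around these letters, so the comparison with all promoters is no test of enrichment. In the same 3 genes a pair of interferon regulatory factor (IRF) half-sites, GAANNGAAA, which 6.34% of all promoters held, followed the NF-κB letters toward the start. In *H2-K1* the NF-κB letters began 111 bases before the start, in *H2-D1* 171 bases and in *H2-Q7* 133 bases. These distances depend on the start site that RefSeq annotates. The window printed for *H2-D1* lies wholly inside the GENCODE bounds of the gene given below, and that for *H2-T23* mostly so. *H2-T23*, *B2m* and *Erap1* held the other spacing of the IRF half-sites, the interferon-stimulated response element GAAANNGAA, found in 7.16% of all promoters. The letters TGACG, the core of the X2 box and of cyclic AMP response elements, stood in 5 of the 8 (*H2-K1*, *H2-D1*, *H2-Q7*, *B2m* and *Tap1*) and in 17.9% of all promoters. CCAAT, which NF-Y binds, stood in 7 of the 8 against 34.5% of all, *Erap1* being the exception. ACGTG, the core that HIF-1 recognises, stood in *H2-Q7*, where it overlapped TGACG, and in *Erap1*, that is in 2 of the 8, and in 16.6% of all promoters. A longer repeat can match both spacings at once, but no member held both. The classical and Qa-region heavy chains thus shared an arrangement of the exact letters searched that was not found in *H2-T23* and *B2m*. These matches describe letters in a window and do not show that a factor bound there.

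**Figure D1:**
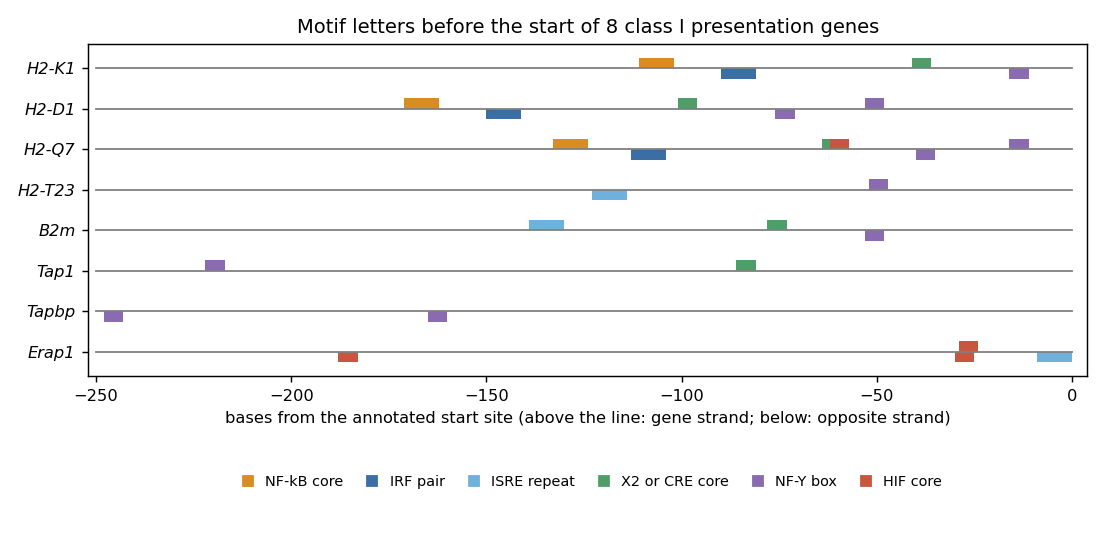
Positions of 6 motifs in the 250 bases before the annotated start of 8 class I presentation genes, in bases from the start, drawn above the line for the strand of the gene and below it for the opposite strand. *H2-K1*, *H2-D1* and *H2-Q7* carry the NF-κB core, the IRF pair, the X2 or CRE core and the NF-Y box in the same order. *H2-T23* and *B2m* have the response element repeat and neither of the first 2 as searched, and *H2-T23* has no X2 or CRE core.

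By FPKM *B2m* was the highest of the 10 transcripts and *Erap1* the lowest. FPKM is per gene length, and how the length of a gene with several transcripts was taken is not given in the sources used here. The merged exons in GENCODE vM21 cover 860 bases for *B2m*, with 1 transcript, 2938 for *H2-K1*, with 16, and 4265 for *H2-Q7*, with 6. The order of genes and the ratios between genes therefore depend on these lengths. Over the 6 libraries the mean FPKM was 1926 ± 128 (SD) for *B2m*, 1494 ± 114 for *H2-K1*, 1357 ± 86.5 for *H2-D1*, 278 ± 21.96 for *Tapbp*, 241 ± 28.6 for *H2-T23*, 147 ± 18.6 for *Tap1*, 85.9 ± 19.9 for *Nlrc5*, 65.1 ± 3.27 for *Tap2*, 58.1 ± 11.1 for *H2-Q7* and 26.9 ± 2.46 for *Erap1*. By mean FPKM *B2m* ranked 45, *H2-K1* 68 and *H2-D1* 83 among the 13312 genes tested, so that the 3 chains of the classical molecules were among the most abundant transcripts of these cells. *Tap2* and *H2-Q7* were the neighbours whose order changed between libraries, *Tap2* being the higher in 4 of 6. The ranges of *H2-K1* and *H2-D1*, of *Tapbp* and *H2-T23*, and of *Nlrc5* and *Tap2* overlapped, but the first of each pair was the higher within all 6 libraries. The 4 heavy chains summed to 1.55 to 1.70 times the *B2m* level. Together the 10 genes made up 0.690% to 0.823% of the summed FPKM of a library.

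None of the 10 genes differed between KO and WT past the test. With limma on log2(FPKM + 1) and Benjamini-Hochberg adjustment over all genes tested, 0 of the 10 had an adjusted p under 0.05, and neither did any other gene, so the background was 0% of 13312 genes (smallest adjusted p 0.321). At an unadjusted p under 0.05 there were 0 of 10 members against 929 genes, 6.98% of all tested. The KO and WT values did not overlap in 0 of 10 members against 1344 genes, 10.1% of all tested. With 3 libraries against 3 the exact permutation test could not give a p below 0.1. The median log2 difference KO minus WT of the members was -0.064, with 3 above 0 and 7 below, and that of all genes tested was -0.028, with 5604 above 0 and 7708 below.

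**Figure D2:**
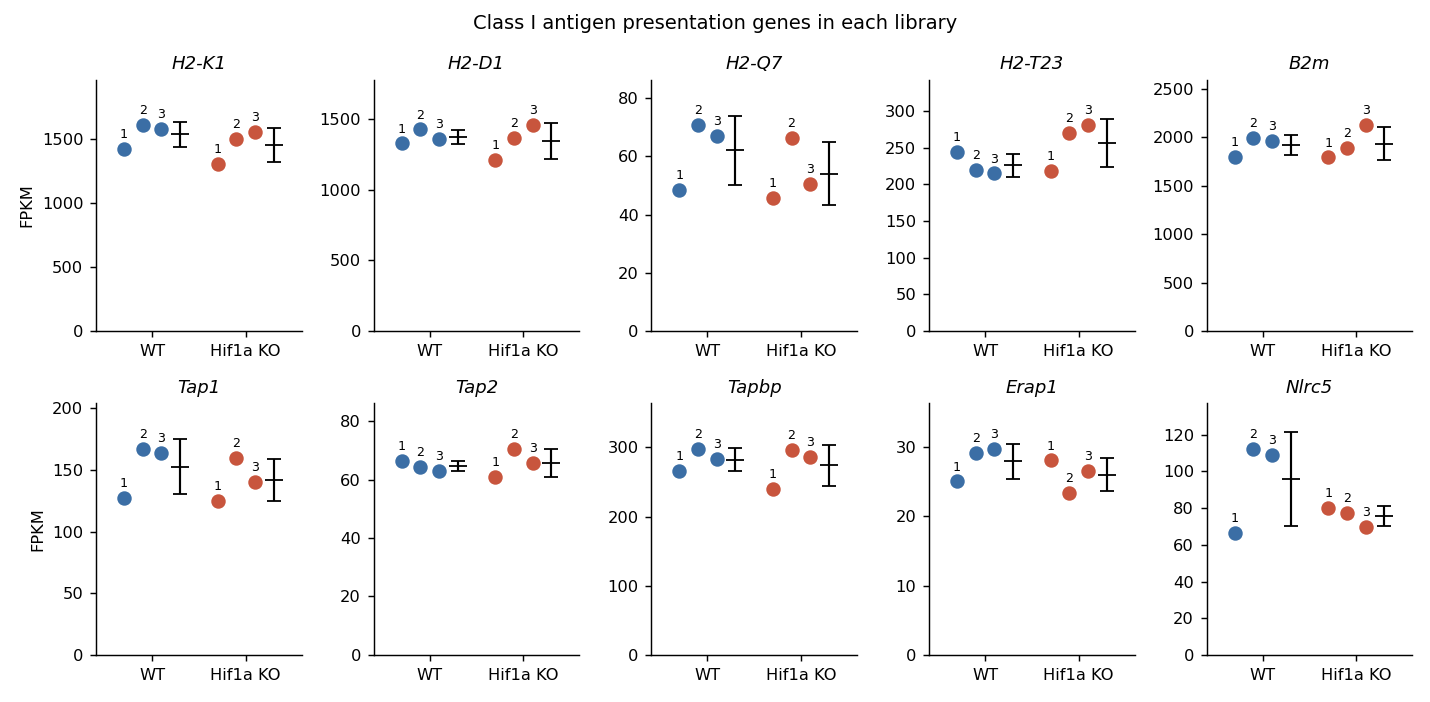
FPKM of the 10 class I presentation genes in each library (points, numbered by replicate, WT in blue and *Hif1a* KO in red), with the mean and SD of each group of 3 beside them as a bar, each axis starting at 0. The groups overlap in every panel, and WT replicates 2 and 3 lie above all other libraries for 5 genes, with *Nlrc5* the clearest case (112 and 109 against 66.7 to 80.2).

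*H2-K1* (ENSMUSG00000061232, chr17:33996017-34000347 on mm10, minus strand) and *H2-D1* (ENSMUSG00000073411, chr17:35262730-35267499, plus strand) encode the K and D molecules, the classical class I heavy chains that show peptides to CD8 T cells. *H2-K1* was at 1423, 1607 and 1575 FPKM in the WT libraries and at 1303, 1499 and 1555 in the KO libraries. The lowest *H2-K1* library was thus KO replicate 1 and the highest WT replicate 2, with overlapping groups, and the log2 difference KO minus WT was -0.082 ± 0.095 (SE, 95% interval -0.31 to 0.14, adjusted p = 0.762). *H2-D1* was at 1326, 1425 and 1360 FPKM in the WT libraries and 1209, 1367 and 1456 in the KO libraries. For this gene the lowest and the highest library were both KO, and the log2 difference was -0.031 ± 0.088 (SE, 95% interval -0.24 to 0.18, adjusted p = 0.905). The ratio of *H2-K1* to *H2-D1* ran from 1.07 to 1.16 in WT and from 1.07 to 1.10 in KO (exact permutation test, two-sided, p = 0.3).

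*H2-T23* (ENSMUSG00000067212, chr17:36029773-36032855, minus strand) encodes Qa-1, a nonclassical heavy chain that shows leader peptides of other class I chains to NK cell receptors. It stood at 244, 219 and 215 FPKM in the WT libraries and 218, 270 and 281 in the KO libraries. Its pattern differed from that of the other heavy chains in that WT replicates 2 and 3 were low and KO replicates 2 and 3 high, while KO replicate 1 lay among the WT values. The log2 difference KO minus WT was 0.17 ± 0.11 (SE, 95% interval -0.082 to 0.43, adjusted p = 0.642), the highest of the 10. Set against *H2-K1* in the same library, *H2-T23* was 0.171, 0.136 and 0.136 times as high in WT and 0.168, 0.180 and 0.180 times in KO, with an exact permutation p of 0.2 (two-sided).

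*H2-Q7* (ENSMUSG00000060550, chr17:35439155-35443773, plus strand) encodes Qa-2, a nonclassical heavy chain held in the membrane by a lipid anchor. It was at 48.4, 70.7 and 66.9 FPKM in WT, as against 45.7, 66.2 and 50.4 in KO, so that WT replicate 1 and KO replicates 1 and 3 were low and the other 3 libraries high. The log2 difference was -0.19 ± 0.18 (SE, 95% interval -0.63 to 0.24, adjusted p = 0.720). The level of this gene is less certain than those of the other heavy chains, because 11.98% of the 100-base stretches in its transcripts also occur in transcripts of other genes, chiefly *H2-Q10*, *H2-Q5* and *H2-Q6*, against 0.957% for *H2-K1*, 3.59% for *H2-D1* and 3.15% for *H2-T23*, and how reads with several matches were counted is not given in the sources used here.

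*B2m* (ENSMUSG00000060802, chr2:122147686-122153083, plus strand), the shared light chain, lies outside the MHC and had no stretch in common with another gene. It was at 1798, 1996 and 1958 FPKM in WT and at 1792, 1886 and 2124 in KO, and replicate 1 was the lowest library of each group. The log2 difference KO minus WT was 0.010 ± 0.091 (SE, 95% interval -0.21 to 0.23, adjusted p = 0.974). *H2-K1* was 0.792, 0.805 and 0.805 times *B2m* in the WT libraries and 0.727, 0.795 and 0.732 times in the KO libraries, and this ratio did not pass the exact permutation test (two-sided p = 0.2).

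The peptide transporter genes lie close to each other in the class II region of chromosome 17. *Tap1* (ENSMUSG00000037321, chr17:34187553-34197225, plus strand) stood at 128, 167 and 164 FPKM in WT and 125, 159 and 140 in KO. Replicate 1 was again the lowest library of either group, and the log2 difference was -0.10 ± 0.13 (SE, 95% interval -0.42 to 0.21, adjusted p = 0.781). *Tap2* (ENSMUSG00000024339, chr17:34203527-34216321, plus strand) was at 66.3, 64.4 and 63.0 FPKM in WT and 60.9, 70.6 and 65.6 in KO, with all 3 WT values inside the range of the KO values. It had the smallest spread of the 10, a coefficient of variation of 5.02% over the 6 libraries, and a log2 difference of 0.022 ± 0.070 (SE, 95% interval -0.15 to 0.19, adjusted p = 0.918). The transcripts of the 2 subunits did not stand in a fixed ratio, *Tap1* being 2.59 and 2.60 times *Tap2* in WT replicates 2 and 3 and 1.92 to 2.26 times in the other 4 libraries. Between KO and WT the ratio had an exact permutation p of 0.4 (two-sided).

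*Tapbp* (ENSMUSG00000024308, chr17:33915899-33929292, plus strand), which encodes tapasin, the bridge between TAP and the heavy chain, was at 265, 298 and 283 FPKM in WT and 240, 296 and 286 in KO. Its log2 difference was -0.047 ± 0.095 (SE, 95% interval -0.27 to 0.18, adjusted p = 0.866). *Erap1* (ENSMUSG00000021583, chr13:74639568-74693201, plus strand), the peptidase that trims peptides to the length class I binds, was at 25.0, 29.1 and 29.7 FPKM in WT and 28.0, 23.3 and 26.5 in KO. In contrast to the other members, its lowest library was KO replicate 2, and the log2 difference was -0.10 ± 0.098 (SE, 95% interval -0.33 to 0.13, adjusted p = 0.725). Exons of *Tapbp* overlap *Zbtb22* on the same strand and *Gm19412* on the opposite strand, for 1053 bases summed over both. On the opposite strand, exons of *Erap1* overlap *Cast* for 834 bases, and those of *Tap1* overlap *Psmb9* for 212. Those of *Tap2* overlap *Gm20496* and *Gm15821*, also on the opposite strand, for 698 bases. Whether reads were counted by strand is not given in the sources used here, and for *Zbtb22* a strand setting would not separate the reads.

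*Nlrc5* (ENSMUSG00000074151, chr8:94434356-94527272, plus strand) varied most among the members, with a coefficient of variation of 23.2% over the 6 libraries against a median of 11.2% over all genes tested. It was at 66.7, 112 and 109 FPKM in WT and at 80.2, 77.2 and 69.6 in KO. WT replicate 1 was the lowest of all 6 libraries, below every KO library, whereas WT replicates 2 and 3 were above every KO library. The group means were 96.0 ± 25.5 (SD, n = 3) and 75.7 ± 5.50 (SD, n = 3), and the log2 difference was -0.30 ± 0.20 (SE, 95% interval -0.77 to 0.16, limma adjusted p = 0.648). *Ciita*, its class II counterpart, ranged only from 91.5 to 108 FPKM, so that the ratio of *Nlrc5* to *Ciita* was 0.710, 1.13 and 1.03 in WT and 0.877, 0.716 and 0.699 in KO (exact permutation test, two-sided, p = 0.3).

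The call for *Nlrc5* depended on WT replicate 1. Without that library 1251 of 13312 genes had an adjusted p under 0.05, 485 higher and 766 lower in KO, which is 9.4% of all tested, and 1 of the 10 members was among them. This was *Nlrc5*, with a log2 difference of -0.55 ± 0.075 (SE, 95% interval -0.73 to -0.36, adjusted p = 0.0139). The other 9 members stayed short of the threshold without WT replicate 1, with adjusted p between 0.182 for *H2-Q7* and 0.827 for *B2m*. With WT replicate 1 as the only WT library, an alternative added after the values were seen, the *Nlrc5* difference was 0.18, that is, of the opposite sign. Leaving out KO replicate 2, the library with *Ddx3y*, gave -0.32 for *Nlrc5* (adjusted p = 0.692) and no call among the members.

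**Figure D3:**
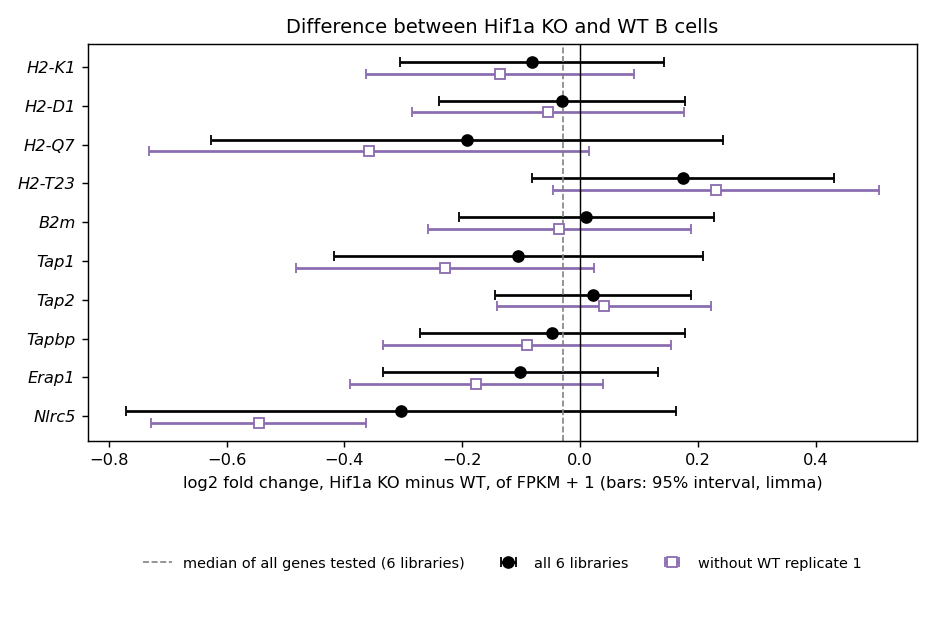
Log2 difference KO minus WT of FPKM + 1 for the 10 genes, with 95% intervals from limma, over all 6 libraries (filled circles) and without WT replicate 1 (open squares). The dashed line is the median of all genes tested (-0.028). The intervals include 0 for all 10 genes with 6 libraries, and for 9 of 10 without WT replicate 1, *Nlrc5* being the exception.

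The spread among libraries was not the same in all members, and WT replicates 2 and 3 often lay together. WT replicates 2 and 3 were both above the other 4 libraries for 5 of the 10 members, *H2-K1*, *H2-Q7*, *Tap1*, *Erap1* and *Nlrc5*, and both below them for 0 of 10. Over all genes tested the shares were 30.5% above and 17.0% below, so this position was common in the whole transcriptome. The ranges over the 6 libraries on the log2(FPKM + 1) scale were 0.21 for *Tap2*, 0.25 for *B2m*, 0.27 for *H2-D1*, 0.30 for *H2-K1*, 0.31 for *Tapbp*, 0.34 for *Erap1*, 0.38 for *H2-T23*, 0.41 for *Tap1*, 0.62 for *H2-Q7* and 0.74 for *Nlrc5*, beside a median of 0.31 over all genes with a mean of at least 5 FPKM. Each member thus moved less than a doubling across the series.

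Interferon-stimulated genes, among which class I genes are counted as background knowledge, were also high in these WT libraries. The list of 31 held 29 tested genes, all 29 of which were higher in WT replicates 2 and 3 than in WT replicate 1, and 23 of which had both libraries above the other 4. Summed over the list, they reached 330, 666 and 595 FPKM in WT, beside 326, 562 and 381 in KO. KO replicate 2 was therefore high too, above both other KO libraries for 29 of 29 genes of the list, against 4 of the 10 members and 33.2% of all genes tested. *Ifit3*, a gene of the IFIT family, stood at 0.724, 10.6 and 8.12 FPKM in WT and 0.458, 4.24 and 0.691 in KO. None of the 29 passed the test between KO and WT (median log2 difference -0.39, 1 above 0 and 28 below), and without WT replicate 1 there were 2 calls of 29, both lower, *Cxcl10* and *Rsad2*, a share no higher than the 9.4% of all genes called in that fit. *Cxcl10*, a chemokine that draws T cells, was at 0.171, 2.42 and 1.56 FPKM in WT and 0.0318, 0.348 and 0.160 in KO, and *Rsad2*, which encodes the antiviral enzyme viperin, at 0.144, 1.65 and 1.4999 in WT and 0.0714, 0.593 and 0.0957 in KO.

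Averaged over the genes of a list after centring each gene, the members lay at -0.11, 0.12 and 0.084 on the log2 scale in WT and at -0.14, 0.039 and 0.0067 in KO, while the interferon-stimulated genes lay at -0.66, 0.77 and 0.59 and at -0.66, 0.35 and -0.40. In both lists WT replicate 1 and KO replicate 1 were the lowest libraries and WT replicate 2 the highest, with a far smaller span in the members. The members and the interferon-stimulated genes come from the same 6 libraries, so this is a description and no test was made of it.

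**Figure D4:**
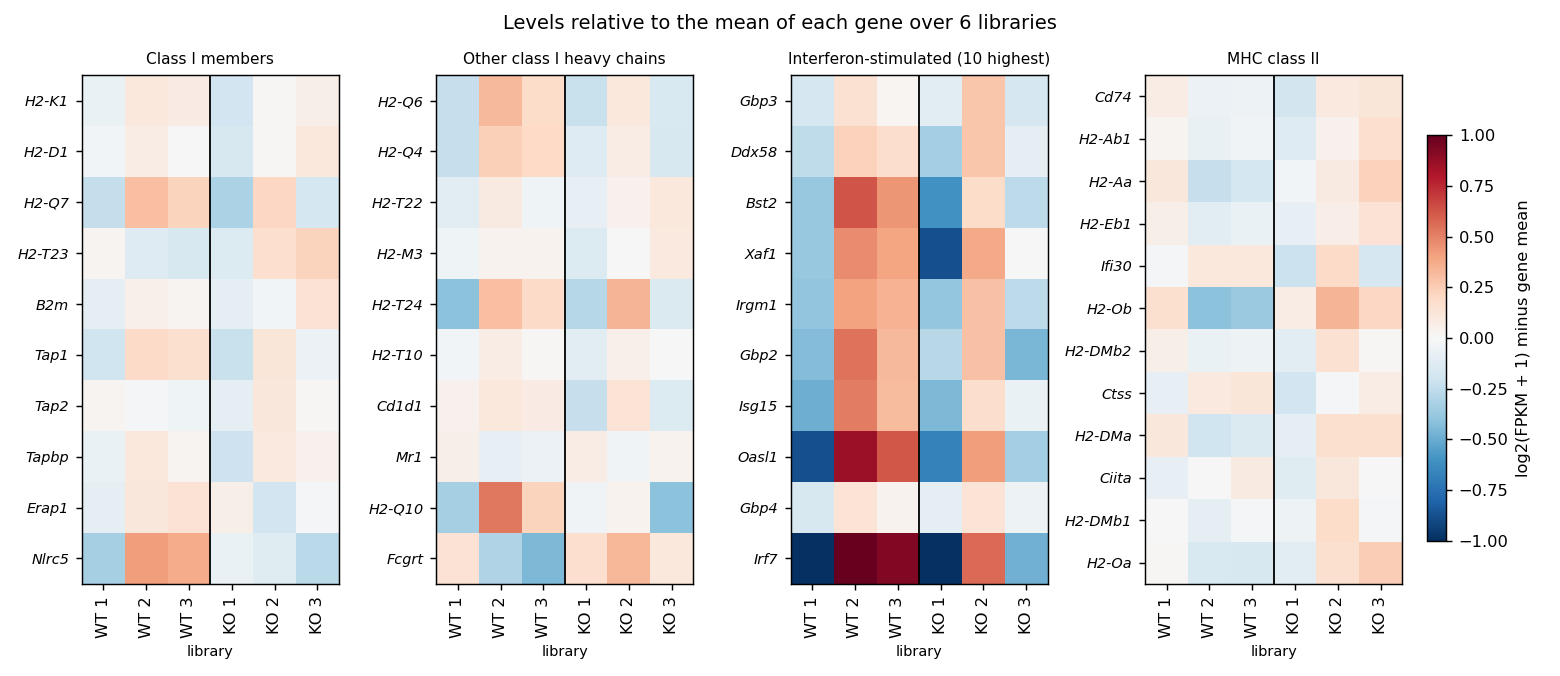
Log2(FPKM + 1) minus the mean of each gene over the 6 libraries, in colour from -1 to 1 (values beyond are drawn at the limit), for the 10 class I members, the 10 other class I heavy chain genes tested, the 10 interferon-stimulated genes with the highest mean FPKM and 12 MHC class II genes, with a line between WT and KO libraries. The interferon-stimulated genes are high in WT replicates 2 and 3 and KO replicate 2. *Nlrc5*, *H2-Q7*, *Tap1*, *H2-Q6*, *H2-Q4* and *H2-T24* show a fainter form of this in the WT libraries, and *H2-Ob* shows the reverse there. *H2-T24* is highest in KO replicate 2.

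Markers of other cells were not level across the libraries either. The 13 macrophage markers, of which 6 were tested, summed to 74.5, 190 and 127 FPKM in WT and 75.1, 80.1 and 68.3 in KO. *Adgre1*, the gene of the F4/80 antigen, made up most of this sum outside WT replicates 2 and 3, at 59.8, 91.1 and 81.1 FPKM in WT and 67.7, 69.7 and 55.5 in KO, while *Marco*, a scavenger receptor of macrophages, was at 0.164, 18.8 and 7.31 in WT and at most 0.634 in KO. The complement gene *C1qa* was at 0.103, 2.98 and 1.33 FPKM in WT and at most 0.193 in KO, and the defining markers *Csf1r* and *Cd14*, though at or under 1.05 FPKM in every library, were also highest in WT replicates 2 and 3. Of the 6 tested, 5 were higher in both these libraries than in all others, *Mrc1* being the exception. *Mrc1* was at 0.938, 1.04 and 0.714 FPKM in WT and 0.966, 0.884 and 1.12 in KO. *Itgam*, which was not tested, was at 0.227, 0.205 and 0.0678 in WT and 0.211, 0.236 and 0.1296 in KO. Both were lowest in WT replicate 3. The 7 neutrophil markers summed to 32.9 FPKM in WT replicate 1, of which *S100a9* gave 19.9 and *S100a8* 10.9, and to at most 0.521 in the other libraries, where *S100a9* was listed at 0. The 7 dendritic cell markers, led by *Flt3* and *Itgax*, summed to 17.0 to 18.7 FPKM in WT and 12.4 to 13.9 in KO, ranges that did not overlap. Of the 5 tested, 5 had a log2 difference below 0, and 0 passed the test. Only 1 of 5 had no overlap, beside 10.1% of all genes tested. This was *Siglech*, at 5.36, 2.77 and 4.499 FPKM in WT and 1.86, 2.21 and 2.497 in KO. *Flt3* overlapped, at 6.31, 6.55 and 7.74 in WT and 6.94, 6.23 and 4.74 in KO, and so did *Itgax*. The 5 NK cell markers summed to at most 0.308 FPKM. The 7 T cell markers summed to 91.3 to 138 FPKM, nearly all of it *Lck*, a kinase (90.1 to 137 FPKM), while *Cd3e* stayed at or under 0.134 FPKM. All nucleated cells express class I genes, and the part of these other cells in the members' levels was not tested. In bulk RNA, fewer cells of a type and less RNA per cell cannot be told apart.

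The B cell and plasma cell markers also differed between these libraries. The 10 B cell markers summed to 4055, 3172 and 3238 FPKM in WT and 3190, 4283 and 3291 in KO, with *Cd79a* at 1203, 739 and 779 in WT and 498, 1074 and 611 in KO. The 6 plasma cell markers, with *Xbp1* and *Jchain* the highest, summed to 715, 429 and 399 FPKM in WT and 681, 505 and 906 in KO, and were thus lowest in WT replicates 2 and 3, the libraries in which *Nlrc5* was highest. *Jchain*, the joining chain of secreted IgA and IgM, was at 182, 90.5 and 84.0 FPKM in WT and 173, 142 and 220 in KO. Not every plasma cell marker followed the sum. *Sdc1*, the gene of CD138, was at 4.67, 3.80 and 3.19 FPKM in WT and 2.68, 3.67 and 4.01 in KO. *Irf4* was lowest in KO replicate 2, at 96.9 FPKM. The part of these differences in the values of the members was not tested.

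Among the remaining class I and class I-like heavy chain genes, 10 of the 17 found in the table were tested and 0 passed between KO and WT (median log2 difference -0.046, 3 above 0 and 7 below). The 7 not tested, *H2-Q1*, *H2-Q2*, *H2-T3*, *H2-Bl*, *H2-M2*, *H2-M5* and *H2-M9*, stayed at or under 0.749 FPKM, and *H2-M9* was listed at 0 in every library. *H2-Q6*, a neighbour of *H2-Q7* in the Qa-2 group, was higher than *H2-Q7* in FPKM, at 194, 286 and 259 in WT and 196, 245 and 205 in KO (log2 difference -0.18, adjusted p = 0.696). Its order of libraries was that of *H2-Q7* except for the places of WT replicate 1 and KO replicate 1, and a small share of the 100-base stretches of *H2-Q7* also occur in *H2-Q6*. *Fcgrt*, the class I-like neonatal Fc receptor, which carries IgG and no peptide, was at 1.45, 0.799 and 0.620 in WT and 1.49, 1.79 and 1.39 in KO (log2 difference 0.41, adjusted p = 0.626) and was the 1 of 10 that passed without WT replicate 1 (0.58, adjusted p = 0.0453), a share near the 9.4% of all genes. *Cd1d1*, which shows lipids to NKT cells, was at 11.1, 11.7 and 11.5 FPKM in WT and 9.06, 11.9 and 9.74 in KO.

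The genes that feed peptides to TAP and those that fold the heavy chain did not pass the test either. Of 12 genes of the immunoproteasome, its activator and cytosolic peptidases, 0 passed with 6 libraries or without WT replicate 1 (median log2 difference -0.055, 2 above 0 and 10 below). *Psmb8*, an inducible proteasome subunit, was at 95.7, 81.6 and 79.6 FPKM in WT and 92.8, 94.8 and 99.1 in KO, whereas *Psme2*, a subunit of the proteasome activator, had the opposite layout, with 166, 207 and 221 in WT and 154, 182 and 172 in KO. *Thop1*, a peptidase of the cytosol, was at 26.5, 28.8 and 33.6 FPKM in WT and 26.1, 24.3 and 27.0 in KO. Of 8 genes of folding and loading in the endoplasmic reticulum, 0 passed in both fits (median -0.046, 3 above 0 and 5 below). *Bcap31*, a membrane protein that helps class I leave the endoplasmic reticulum, was the 1 of 8 without overlap, near the 10.1% of all genes, at 107 to 112 FPKM in WT and 101 to 105 in KO, with an adjusted p of 0.676. The chaperone *Canx* ranged from 222 to 255 FPKM and *Ganab*, a glucosidase subunit that readies glycoproteins for it, from 68.3 to 76.9 over the 6 libraries.

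Of 23 genes for transcription factors of class I promoters and for interferon receptors and their kinases, 0 passed with 6 libraries (median log2 difference 0.017, 13 above 0 and 10 below) and 2 of 23 had an unadjusted p under 0.05, *Irf2* and *Nfyc*, beside 6.98% of all genes. *Irf2*, a factor of IRF half-sites, was at 44.5, 33.8 and 35.8 FPKM in WT and 44.6, 46.4 and 48.5 in KO, with no overlap, and its log2 difference was 0.29 ± 0.11 (SE, adjusted p = 0.626). *Nfyc*, a subunit of the CCAAT-binding factor NF-Y, was at 42.4, 40.3 and 43.3 in WT and 47.3, 46.6 and 46.8 in KO (0.16 ± 0.057, adjusted p = 0.626). *Nfya*, another NF-Y subunit, lay the other way without overlap, at 64.9, 68.7 and 73.2 in WT and 64.5, 64.0 and 60.0 in KO (-0.13). Without WT replicate 1, 4 of 23 were called, beside the background of 9.4%, 2 higher in KO (*Irf2* and *Irf8*) and 2 lower, of which *Nfkb2* is described here. *Nfkb2*, a subunit of the factor that binds the NF-κB letters shown for *H2-K1*, *H2-D1* and *H2-Q7*, was at 61.8, 129 and 133 FPKM in WT and 64.6, 73.0 and 59.8 in KO, with a log2 difference of -0.63 (adjusted p = 0.626) that became -0.99 without WT replicate 1 (adjusted p = 0.00494). The other NF-κB subunits of the list changed less. *Nfkb1* ranged from 191 to 208 FPKM (log2 difference 0.022) and *Rela* from 32.4 to 37.9 (0.017). *Relb* was at 36.7, 41.6 and 42.5 in WT and 34.4, 38.9 and 39.1 in KO (-0.10). *Irf8*, another factor of IRF half-sites, was at 484, 373 and 390 in WT and 466, 472 and 504 in KO. In *Nfkb2*, as in *Nlrc5*, WT replicates 2 and 3 were above all other libraries and WT replicate 1 lay below or among the KO libraries.

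MHC class II genes, which load peptides taken up from outside, gave a comparison with the other presentation pathway of B cells. Of 12 genes, 0 passed with 6 libraries (median log2 difference 0.064, 9 above 0 and 3 below, against -0.064 with 3 and 7 for the class I members), and the difference between the pathways was not tested. WT replicates 2 and 3 were both above the other 4 libraries for 1 of 12 class II genes and both below for 4, beside 30.5% above and 17.0% below over all genes tested. *H2-Ob*, a chain of the DO modulator of class II loading, was at 436, 293 and 300 FPKM in WT and 410, 493 and 449 in KO (log2 difference 0.41 ± 0.16 SE, adjusted p = 0.626) and was the 1 of 12 class II genes that passed without WT replicate 1 (0.60, adjusted p = 0.0168), a share near the 9.4% of all genes. *H2-Oa*, the other DO chain, was at 36.5, 32.5 and 32.4 in WT and 33.5, 40.6 and 43.1 in KO, and *H2-Aa*, a chain of the I-A molecule, at 2489, 1961 and 2042 in WT and 2265, 2455 and 2712 in KO. The class II sum of 10332 to 12354 FPKM was above that of the 10 class I members, 5102 to 6054 FPKM, in every library.

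The 5 other genes whose centred profile over the 6 libraries lay nearest to the mean profile of the members, by Euclidean distance on the log2 scale among 9265 genes with a mean of at least 5 FPKM, were *Ttc17* (distance 0.032), *Oma1* (0.048), *Ogfr* (0.062), *Sun2* (0.063) and *Rrad* (0.067). *Ttc17* was at 10.2, 12.3 and 11.6 FPKM in WT and 9.85, 11.3 and 11.01 in KO, which was the order of libraries of the members' mean, and *Oma1* at 17.3, 20.4 and 19.9 in WT and 17.2, 19.8 and 18.5 in KO. The distances rest on 6 libraries. Profiles were centred but not scaled, so the distances depend on the size of the changes as well as on the order of libraries. No interferon-stimulated gene of the list was among the 5, which therefore does not show that their order of libraries differed from that of the members.

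All 10 genes were deeply covered. In genes with 1 transcript the low FPKM values were whole multiples of the value of 1 read in 95.5% to 95.9% of cases within 0.02 of a read, which put the libraries at about 25026000 to 37223000 reads. If the merged exons of GENCODE vM21 were the gene lengths used, the members' values stood for about 4873 reads (*H2-Q7* in KO replicate 1) to 155639 reads (*H2-K1* in WT replicate 1). That assumption was not checked for members with several transcripts. With these numbers counting error was small beside the spread between libraries.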

How the data were processed

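Per the study's methods, the authors used TopHat (v2.0.12) for aligning cleaned read pairs to the mm10 genome and HTSeq (v0.6.1) for counting them by gene, and they computed the deposited FPKM values from the count and the gene length, 1 column per library. Per the labels the build was GRCm38 (mm10) and the kit SMARTER mRNA-Seq. The annotation release, strand setting and handling of multiply aligned reads are not given in the sources used here.

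From the 46983 gene identifiers, 46488 matched a GENCODE vM21 symbol. Values were tested as log2(FPKM + 1) with limma 3.58.1 (R 4.3.3, eBayes with a mean-variance trend), KO against WT, two-sided, for the 13312 genes averaging 0.5 FPKM or more, with Benjamini-Hochberg adjustment over all of them, after a check on simulated data. A fold change on this scale understates the change of low genes. Count tests were not the main test because the deposited unit is FPKM. Single values were compared with an exact permutation test of 3 against 3 libraries. Depth was recovered from the steps of low FPKM values. Shared 100-base stretches were counted between GENCODE transcripts, and motifs in RefSeq promoter windows (GRCm38.p6).

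The members and gene lists were chosen with earlier results of these data known. Named genes were the 10 members, *Hif1a*, in each other list every called gene or else the 3 with the smallest unadjusted p, in each marker list the 2 with the highest mean FPKM (some of the genes so chosen or called are not reported here), and the 5 genes nearest to the members' profile. Other genes named (*Ciita*, *Irf8*, *Ddx3y*, *Xist*, *Nfya*, *Nfkb1*, *Rela*, *Relb*, *H2-Q4*, *H2-T24*, *Marco*, *C1qa*, *Csf1r*, *Cd14*, *Mrc1*, *Itgam*, *Siglech*, *Sdc1*, *Irf4*, *Cd3e* and the heavy chain genes at or under the filter) were chosen after their values were seen. Of the listed symbols *H2-T9* and *Nrdc* had no match.

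Replicate numbers are shared by WT and KO, but same-numbered libraries did not deviate together (correlations of deviations from the group means -0.099, 0.14 and -0.28), so the numbers were not treated as pairs. Alternatives covered the pseudocount, the filter, scaling, the replicate number as a block, the variance model, reads rebuilt for voom and each library left out.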

Additional observations from a re-analysis of the deposited data

How the results depend on the processing

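No member passed the test with a pseudocount of 0.1, with no filter (25717 genes) or a filter at a mean of 5 FPKM (9275 genes), with median-ratio scaling, quantile normalization, no variance trend or voom on rebuilt reads (13268 genes), and 0 genes were called in all of these. With the replicate block 0 genes were called and the members' median log2 difference was -0.064, as without it. Same-numbered libraries share only a number. Median-ratio scaling moved the median of all genes from -0.028 to 0.0019 and *H2-D1* to 0.0034, and quantile normalization moved *B2m* to -0.027. Leaving out 1 library at a time gave between 0 and 1251 called genes (1251 without WT replicate 1, 1 without KO replicate 1, 0 without each of the others), between 0 and 1 called members, and a members' median between -0.11 and 0.019. *Nlrc5* passed only without WT replicate 1 (-0.55). Signs changed for *B2m* without WT replicate 1 (-0.035) and without KO replicate 3 (-0.059), for *H2-D1* (0.043) and *Tapbp* (0.045) without KO replicate 1, and for *Tap2* without KO replicate 2 (-0.030). Over all such fits *B2m* ran from -0.059 to 0.064, *H2-D1* from -0.091 to 0.043 and *Tap2* from -0.030 to 0.074. With WT replicates 2 and 3 left out, an alternative added after seeing the data in which the lone WT library is assumed to vary like the KO group, 3 genes were called, all lower, the members' median was 0.055, and the differences were 0.025 for *H2-K1*, 0.015 for *H2-D1*, 0.040 for *Tapbp*, 0.14 for *Tap1*, 0.18 for *Nlrc5*, -0.016 for *Tap2*, 0.14 for *H2-Q7* and 0.048 for *Erap1*, each of the opposite sign to that with 6 libraries. The cause of these changes was not tested. With 3 libraries a group, differences inside the interval given for each member are not excluded.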
